A study of Homo sapiens with 12 samples.

Results

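The genes of sterol and fatty acid metabolism described here are 35 genes chosen by name: 18 of sterol synthesis, 4 regulators of the pathway, 5 of sterol transport and efflux and 8 of fatty acid synthesis, out of 19775 genes that had a probe set of their own on the array. Each gene was read from 1 probe set, the one naming that gene alone with the highest mean signal over the 12 arrays, and 32 of the 35 had such a probe set. FDFT1 was not analysed here, and CYP51A1 and FADS1 had only 2 and 3 probe sets shared with other genes, from which no value was taken. Of the 32 genes, 29 passed a filter on low signal (above 100 on more than 25% of the arrays) and 26 also varied enough to be tested. TM7SF2, ABCA1 and ABCG1 did not pass the signal filter, and SCAP, ACLY and LPIN1 passed it but had an interquartile range below the median of all probe sets.

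RNA was measured on 12 Affymetrix arrays, 2 in each of 6 groups, from the human osteosarcoma cell line SaOS-2 and from SaOS-2 stably transfected with CD99, a cell surface glycoprotein. Both were sampled in routine medium (day 0) and at days 7 and 14 in osteogenic medium, which holds less serum than routine medium with β-glycerophosphate and ascorbic acid added, so that the lower serum, the supplements and the time in culture cannot be told apart. The CD99 line is represented by 2 clones, wt22 and wt36, selected in neomycin after calcium phosphate transfection, with 1 array of each clone on each day, so that the spread of this group is one between clones. Nothing in the labels states that the pair of SaOS-2 arrays on each day is from different dishes or passages. The spread of these pairs may therefore be technical. The p-values rest on 1 spread per probe set from all 12 arrays, which mixes these pairs with the pairs of clones. Gaps between the SaOS-2 arrays had an SD of 0.14, 0.13 and 0.12 at days 0, 7 and 14. For gaps between the clones the SD was 0.39, 0.41 and 0.42. An SE shared by both lines can thus be too wide for SaOS-2 and too narrow for the CD99 line. No transfected line without CD99 is among the samples.

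Cells make cholesterol from acetyl-CoA through mevalonate, isoprenoids, squalene and lanosterol. The membrane-bound factors SREBP2 (gene SREBF2) and SREBP1 (gene SREBF1) switch on the genes of this route and of fatty acid synthesis when sterols in the endoplasmic reticulum are low: SCAP then escorts them to the Golgi, where proteases release their active part, while INSIG1 holds SCAP back when sterols are plentiful. Serum lipoproteins are a main outside source of cholesterol for cultured cells, and NPC2 and NPC1 move the cholesterol taken up out of the lysosome. When sterols are in excess, ABCA1 and ABCG1 export them.

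Before the pathway genes, 3 features of the arrays bear on every comparison. The CD99 probe set with the higher mean signal gave no called difference between arrays labelled Sa/CD99 and SaOS-2 (log2 differences of 0.03, 0.07 and 0.05 at days 0, 7 and 14, SE 0.08, limma adjusted p = 0.947, 0.633 and 0.823), and the other CD99 probe set was lower on the arrays labelled Sa/CD99 (-4.60, -4.17 and -3.23, SE 0.42, adjusted p = 0.0024, 0.00224 and 0.00843). The study also checked CD99 by real-time PCR in both clones and in SaOS-2, values not used here. Neither probe set showed more CD99 RNA, and no source used here says whether either covers the transfected sequence, so the transfected arrays are named by their label. The 2 clones lay further apart than the 2 SaOS-2 arrays of a day: over the 26 tested genes the median gap between clones was 0.17, 0.20 and 0.19 on the log2 scale at days 0, 7 and 14, against 0.07, 0.06 and 0.05 between SaOS-2 arrays. Of 7 osteoblast lineage markers 6 passed the signal filter, SPP1 being the exception, whereas 5 of 6 adipocyte markers, FABP4, ADIPOQ, PLIN1, LEP and CIDEC, and all 3 endothelial and all 3 leukocyte markers did not pass it. Of 4 epithelial markers 2 passed, EPCAM with a log2 signal of 7.22 to 8.68 and KRT18 with 7.87 to 9.89, and CDH1 and KRT8 did not.

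The first comparison asked how these genes changed over the first 7 days in osteogenic medium. Of the 26 tested genes, 14 rose in both lines. A gene is said to have risen or fallen when its adjusted p in limma, over 12894 tested probe sets, was at or under 0.05 and its change at least 1.5-fold. In SaOS-2, 14 of the 26 tested genes rose and 0 fell, and on the arrays labelled Sa/CD99 15 rose and 0 fell. Among all 6644 genes tested, the share that rose was 10.9% in SaOS-2 and 8.22% on the arrays labelled Sa/CD99, and the share that fell was 9.44% and 7.59%. The median log2 change of the 26 genes was 0.67 in SaOS-2 and 0.69 on the arrays labelled Sa/CD99, beside -0.04 and -0.02 over all genes tested, and 26 and 25 of the 26 values lay above 0. The 14 genes that rose in SaOS-2 also rose on the arrays labelled Sa/CD99, and HSD17B7 was the further one there. With only the 4 arrays of the 2 days in the fit, 10 rose on the arrays labelled Sa/CD99, without FADS2, FDPS, HSD17B7, NPC2 and SREBF1. Without any filter, 15 of the 32 genes rose in SaOS-2 and 16 on the arrays labelled Sa/CD99, against 4.36% and 3.23% of 19775 genes, with TM7SF2 added in both lines.

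**Figure D1:**
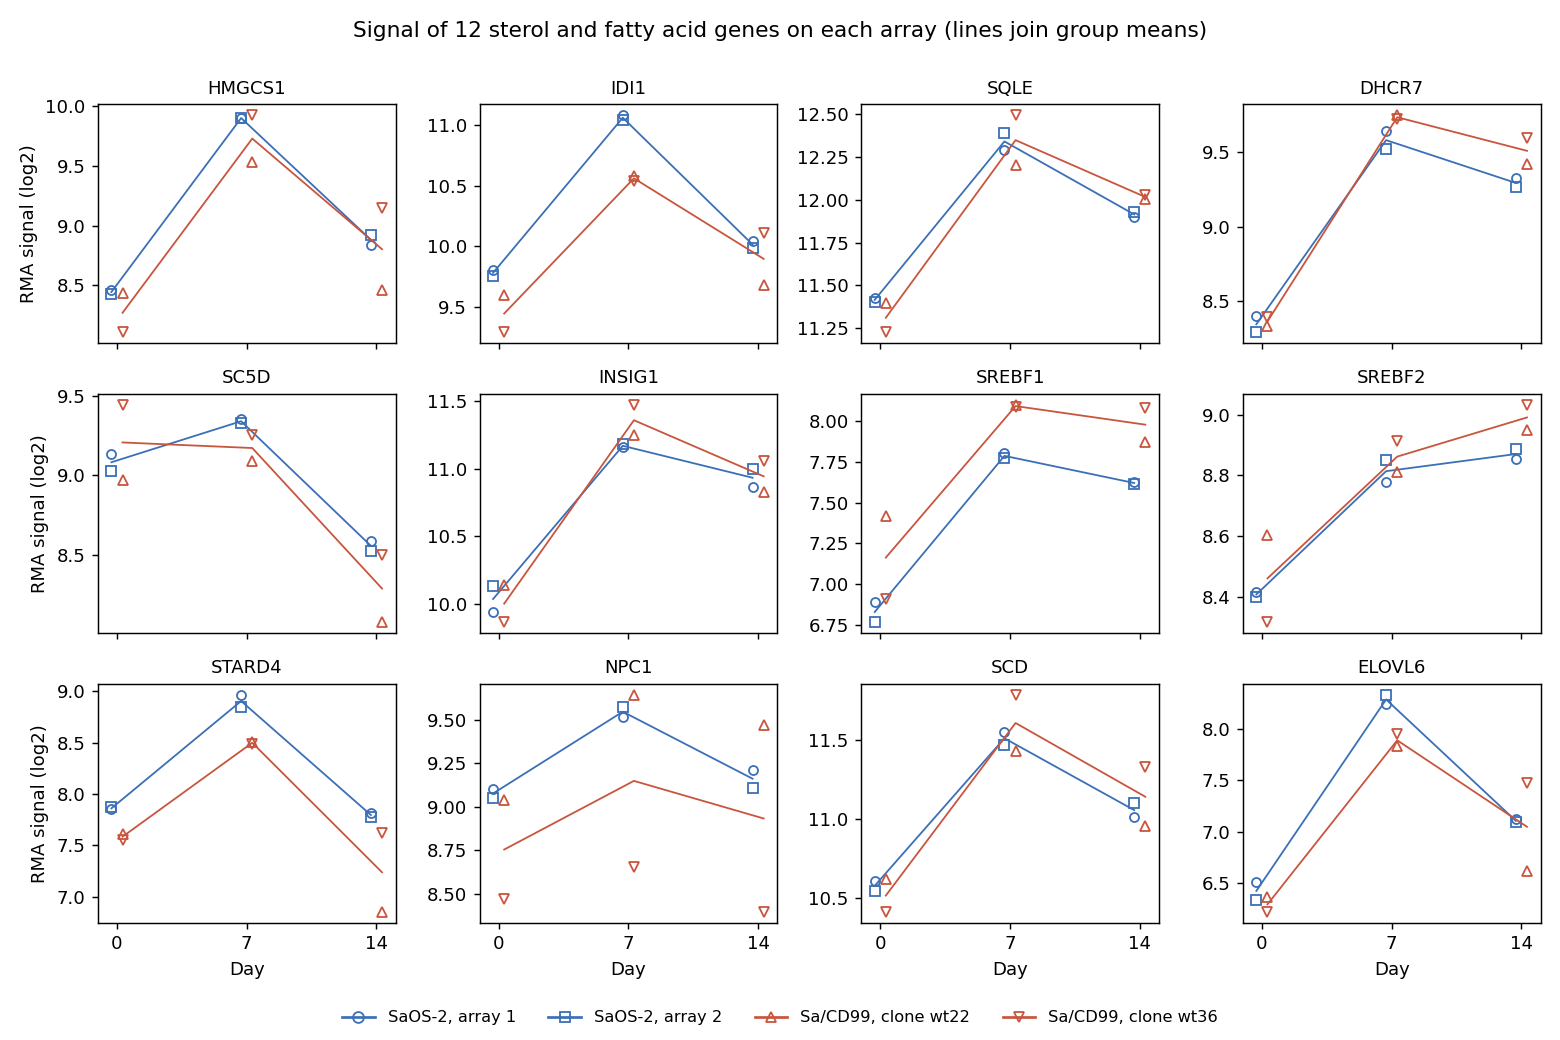
Log2 RMA signal (vertical axes, each with its own range) of 12 genes at days 0, 7 and 14, 1 point per array, with lines through the group means. HMGCS1, IDI1, STARD4 and ELOVL6 rose by day 7 and fell between days 7 and 14 in both lines, ELOVL6, DHCR7, INSIG1 and SREBF1 were higher at day 14 than at day 0, and the clones of the transfected line are furthest apart for NPC1.

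In the upper part of the sterol route, HMGCS1, which joins acetyl-CoA units into the precursor of mevalonate, had the largest change of the synthesis enzymes. Its log2 signal was 8.46 and 8.43 on the SaOS-2 arrays at day 0, 9.90 and 9.90 at day 7 and 8.84 and 8.92 at day 14. For the clones wt22 and wt36 it was 8.43 and 8.11, then 9.53 and 9.92, then 8.46 and 9.15. All day 7 arrays of either line lay above all arrays of the other days, and the rise was 2.74-fold in SaOS-2 (log2 change 1.46 ± 0.22 SE, adjusted p = 0.00128) and 2.75-fold on the arrays labelled Sa/CD99 (1.46 ± 0.22, adjusted p = 0.00133). IDI1, which interconverts the 5-carbon isoprenoid units, went from 9.80 and 9.76 to 11.08 and 11.04 in SaOS-2 and from 9.60 and 9.29 to 10.58 and 10.54 in the clones. That was a rise of 1.28 ± 0.15 and 1.12 ± 0.15 (adjusted p = 0.000432 and 0.00078), on a probe set of the class that can bind related transcripts, and another of its 3 probe sets past the signal filter gave -0.31 and -0.20 where a further one gave 1.24 and 1.04. FDPS, which builds farnesyl diphosphate, rose by 0.59 ± 0.09 and 0.66 ± 0.09 (adjusted p = 0.00144 and 0.000874), close to the fold threshold, and in SaOS-2 it did not pass without the first array of day 0 or the second of day 7. ACAT2, MVK, PMVK and MVD, which supply and phosphorylate or decarboxylate mevalonate pathway intermediates, did not pass the fold threshold, with changes of 0.32, 0.35, 0.37 and 0.32 in SaOS-2 and 0.35, 0.50, 0.36 and 0.11 on the arrays labelled Sa/CD99.

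After squalene, the route runs through an oxidation, a cyclization and a series of steps that trim and reduce the sterol ring. SQLE, the squalene epoxidase, rose from 11.42 and 11.40 to 12.29 and 12.39 in SaOS-2 and from 11.40 and 11.22 to 12.20 and 12.49 in the clones (0.93 ± 0.11 and 1.04 ± 0.11, adjusted p = 0.000566 and 0.000321). MSMO1, the sterol 4-methyl oxidase, rose from 10.93 and 10.97 to 12.04 and 12.11 and from 11.05 and 10.87 to 11.93 and 12.39 (1.13 ± 0.16 and 1.20 ± 0.16, adjusted p = 0.00108 and 0.000796). NSDHL, which works with it in removing the methyl groups, rose by 0.75 ± 0.09 and 0.79 ± 0.09 (adjusted p = 0.000433 and 0.000321). DHCR7, which reduces 7-dehydrocholesterol to cholesterol, had the smallest adjusted p among the chosen probe sets of the 26 genes in both lines. Its signal was 8.40 and 8.29 at day 0 against 9.64 and 9.52 at day 7 in SaOS-2, and 8.33 and 8.39 against 9.75 and 9.72 in the clones, a change of 1.24 ± 0.10 and 1.38 ± 0.10 (adjusted p = 0.000109 and 3.8e-05). An INSIG1 probe set that was not chosen had smaller values (limma adjusted p = 2.4e-05 and 2.43e-05).

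Several enzymes of these later steps did not pass in both lines. HSD17B7, the 3-keto reductase, read from a probe set of the same class as that of IDI1, rose by 0.78 ± 0.12 on the arrays labelled Sa/CD99 (adjusted p = 0.00184), and in SaOS-2 its change was 0.45 ± 0.12 (adjusted p = 0.0182), under the fold threshold, but the difference between the lines in this change, 0.33 with an interval from -0.07 to 0.72, did not pass its own test. LSS, the lanosterol synthase, changed by 0.30 and 0.50 and EBP, the sterol isomerase, by 0.38 and 0.39, neither reaching the fold threshold, and the other 2 EBP probe sets gave -0.11 and -0.06 in SaOS-2. SC5D, which makes 7-dehydrocholesterol, the substrate of DHCR7, changed by 0.26 ± 0.17 in SaOS-2 (adjusted p = 0.256) and by -0.03 ± 0.17 on the arrays labelled Sa/CD99 (adjusted p = 0.897), where the day 0 and day 7 arrays overlapped. TM7SF2, a sterol reductase with 5.65 to 6.64 on all arrays and so no higher than the level of the signal filter (6.64 on the log2 scale), gave 0.84 ± 0.12 and 0.61 ± 0.12 in the fit without a filter (adjusted p = 0.00165 and 0.00948).

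Among the regulators, INSIG1, the sterol-sensing brake on SCAP and itself a target of the SREBPs, rose from 9.94 and 10.13 to 11.16 and 11.18 in SaOS-2 and from 10.14 and 9.87 to 11.25 and 11.47 in the clones. Its log2 change was 1.13 ± 0.14 and 1.36 ± 0.14 (adjusted p = 0.000533 and 0.000217). SREBF1 rose from 6.89 and 6.76 to 7.80 and 7.77 in SaOS-2 (0.96 ± 0.15, adjusted p = 0.00181) and from 7.42 and 6.91 to 8.10 and 8.09 in the clones (0.93 ± 0.15, adjusted p = 0.00224). The other SREBP gene changed less: SREBF2 went from 8.42 and 8.40 to 8.78 and 8.85 and from 8.61 and 8.32 to 8.81 and 8.91, and its changes of 0.41 ± 0.11 and 0.40 ± 0.11 (adjusted p = 0.0173 and 0.0207) were under 1.5-fold. SCAP stayed outside the test for its small spread, and in the fit without a filter its changes were -0.41 ± 0.12 and -0.07 ± 0.12 (adjusted p = 0.0396 and 0.769).

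Of the 3 transport genes tested, 2 rose in both lines. STARD4, a carrier of sterols through the cytosol, rose from 7.85 and 7.87 to 8.97 and 8.85 in SaOS-2 and from 7.61 and 7.56 to 8.51 and 8.49 in the clones (1.05 ± 0.20 and 0.92 ± 0.20, adjusted p = 0.00394 and 0.00786). NPC2, the soluble lysosomal cholesterol carrier, rose from 10.81 and 10.87 to 11.58 and 11.66 and from 10.59 and 10.66 to 11.50 and 11.18 (0.78 ± 0.11 and 0.72 ± 0.11, adjusted p = 0.00118 and 0.00178). NPC1, its membrane partner, had 9.11 and 9.05 against 9.52 and 9.57 in SaOS-2, groups that did not overlap. Its change of 0.47 was under the fold threshold and did not pass (limma adjusted p = 0.334). The SE of 0.37, the widest of the 26 genes, is pooled over both lines and takes in the gap between the clones, which was widest for NPC1. The exporters were low throughout: ABCA1 ranged from 3.48 to 3.83 (median 3.53) and ABCG1 from 4.98 to 5.69 (median 5.32) over the 12 arrays, under the level of the signal filter on every one of them, and their day 7 changes without a filter were -0.17 and -0.20 in SaOS-2 and -0.07 and -0.18 on the arrays labelled Sa/CD99 (adjusted p from 0.398 to 0.792).

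Of the fatty acid genes, ELOVL6, which lengthens palmitate to stearate, had the largest day 7 change among the chosen probe sets of the 26 genes in both lines, but another HMGCS1 probe set changed by 2.13 and 1.66. Its signal went from 6.51 and 6.34 to 8.24 and 8.33 in SaOS-2, a rise of 3.63-fold (1.86 ± 0.22, adjusted p = 0.000508), and from 6.37 and 6.22 to 7.83 and 7.95 in the clones, a rise of 3.02-fold (1.59 ± 0.22, adjusted p = 0.00102). The day 0 arrays lay below the filter level, so the size of the rise rests on dim signals. SCD, the stearoyl-CoA desaturase, rose from 10.61 and 10.55 to 11.55 and 11.47 and from 10.62 and 10.42 to 11.43 and 11.79 (0.93 ± 0.15 and 1.09 ± 0.15, adjusted p = 0.00216 and 0.0011), and FADS2, a desaturase of polyunsaturated fatty acids, by 0.90 ± 0.14 and 0.66 ± 0.14 (adjusted p = 0.00156 and 0.00688).

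The enzymes that build palmitate itself stood lower in this order. FASN, the fatty acid synthase, changed by 0.52 ± 0.12 and 0.58 ± 0.12 (adjusted p = 0.00873 and 0.00614) and ACACA, the acetyl-CoA carboxylase, by 0.44 ± 0.13 and 0.51 ± 0.13 (adjusted p = 0.0278 and 0.0177), all under 1.5-fold, FASN on the arrays labelled Sa/CD99 by a fold of 1.4993. ACLY, which supplies cytosolic acetyl-CoA, ranged from 11.71 to 12.36 over all arrays, and LPIN1, a phosphatidate phosphatase, from 7.96 to 8.47. Without a filter their day 7 changes were 0.02 and 0.20 for ACLY and 0.09 and 0.25 for LPIN1, with adjusted p of 0.96 and 0.562 and of 0.731 and 0.279. The other LPIN1 probe set past the signal filter varied enough to be tested, and it gave 0.81 ± 0.10 and 0.87 ± 0.10 at day 7 (adjusted p = 0.000634 and 0.000432) and -0.74 and -0.81 from day 7 to day 14 (adjusted p = 0.00113 and 0.000885), so that the 2 probe sets of this gene disagree.

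By branch, the sterol synthesis enzymes had 7 of 15 tested genes higher at day 7 in SaOS-2 and 8 of 15 on the arrays labelled Sa/CD99 (median log2 change 0.45 and 0.66), the regulators 2 of 3 in both (0.96 and 0.93), transport 2 of 3 in both (0.78 and 0.72) and the fatty acid genes 3 of 5 in both (0.90 and 0.66). Of 14 genes with more than 1 probe set past the signal filter, the other probe sets all moved in the direction of the chosen one for 12 in SaOS-2 and 13 on the arrays labelled Sa/CD99. By day 7, 10.9% of all genes tested rose and 9.44% fell in SaOS-2, and 8.22% and 7.59% on the arrays labelled Sa/CD99. Beside these shares, the counts of the other pathway genes are too small to set that list apart. Of these other genes, 34 with a probe set and 23 tested, 3 rose and 1 fell in each line, with median log2 changes of -0.12 and -0.03. The 3 were ERG28, a scaffold of the sterol demethylation enzymes (0.61 and 0.84), LIPA, the lysosomal lipase that frees cholesterol from its esters (0.97 and 0.97), and TMEM97, a sterol-responsive membrane protein (0.66 and 0.74), and the 1 that fell was VLDLR, a lipoprotein receptor, with changes of -1.93 in SaOS-2 and -1.56 on the arrays labelled Sa/CD99 (adjusted p = 5.42e-05 and 8.97e-05). The mean log2 signal of 6 proliferation markers was 10.00 to 10.20 at day 0, 9.63 to 9.83 at day 7 and 9.43 to 9.65 at day 14 over both lines, and its part in the changes of the lipid genes was not tested.

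**Figure D2:**
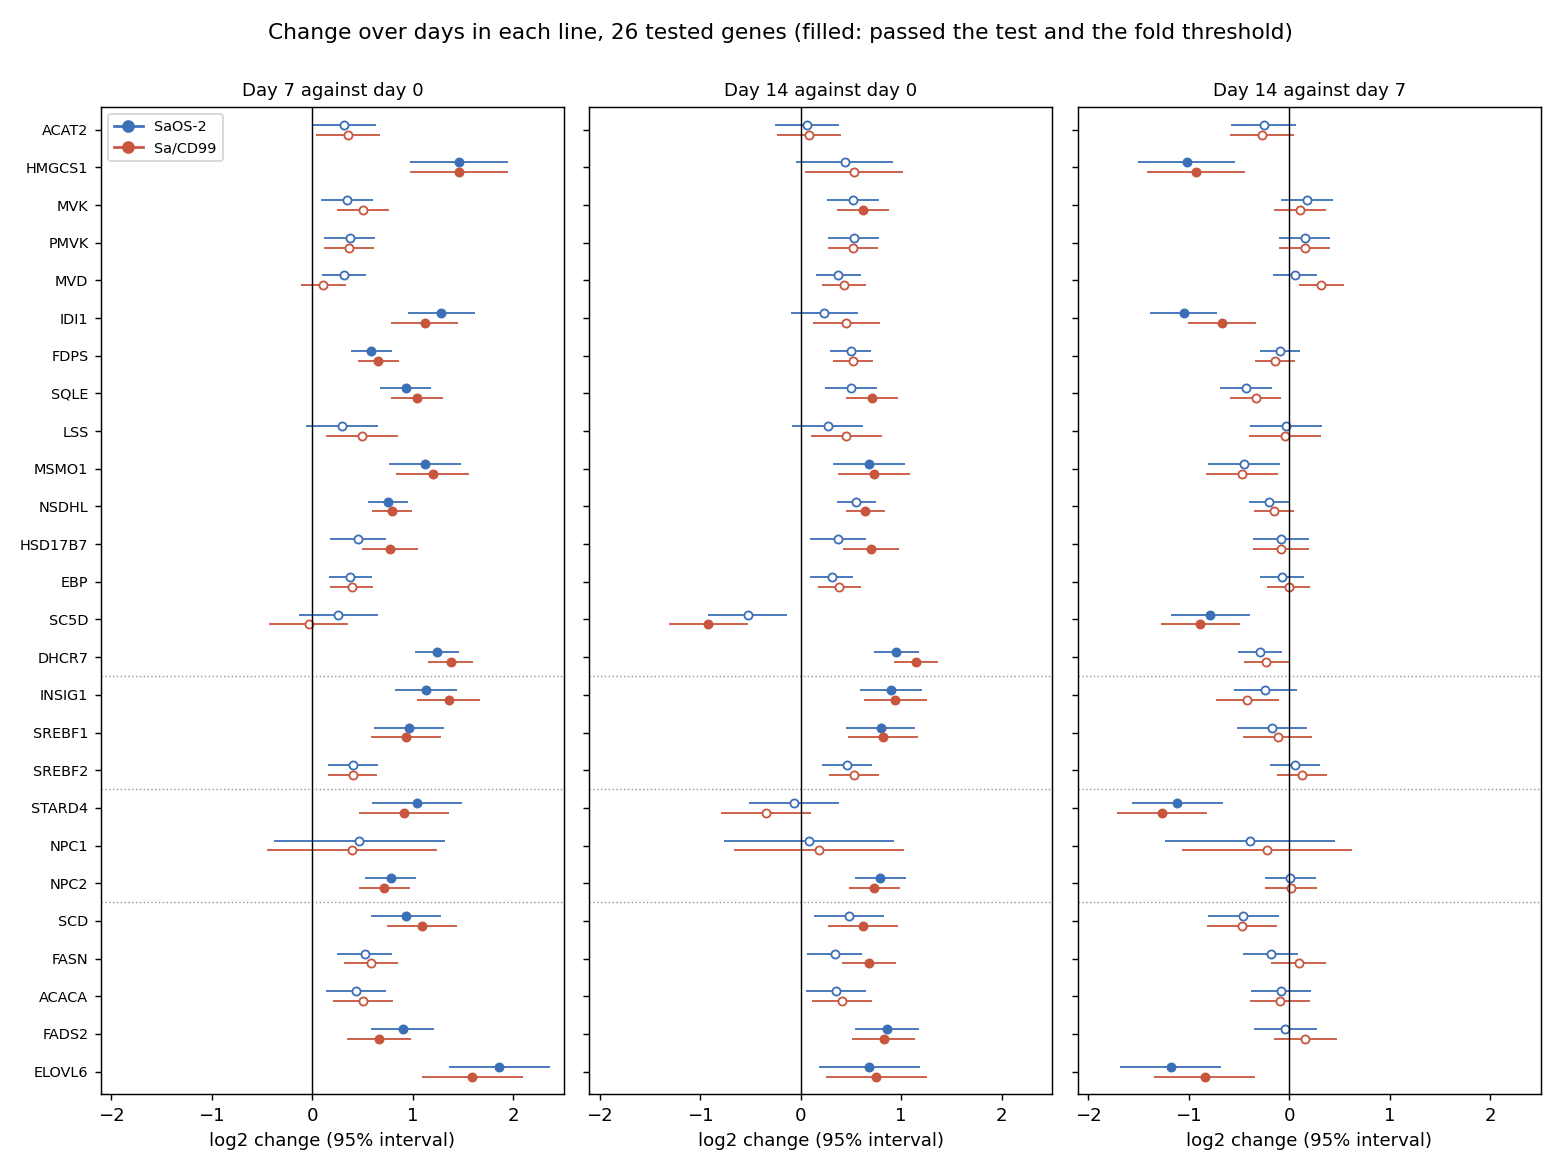
Log2 changes with 95% intervals of the 26 tested genes between days, for SaOS-2 and for the arrays labelled Sa/CD99, grouped from top to bottom into sterol synthesis, regulators, transport and fatty acid synthesis by dotted lines. Filled points passed both thresholds: 14 and 15 at day 7 against day 0, all above 0, and 5 and 5 at day 14 against day 7, all below 0.

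The promoters of these genes were read from RefSeq (GRCh38.p14), which held the 250 bases before and 50 after the start of 30 of the 35 genes. Members of the SREBP family bind sterol regulatory elements, and the factor NF-Y, which binds the letters CCAAT, and Sp1, which binds GC boxes, are known to assist them. Both strands were searched for TCACNCCAC, CCAAT and GGGCGG, with overlapping matches kept. CCAAT was found in 18 of the 30 promoters (60%), against 37.6% of 8156 promoters of genes past the signal filter and 35.7% of 27305 promoters in all. GGGCGG was found in 28 (93.3%), against 72.2% and 44.6%, and TCACNCCAC in 1 (3.33%), against 1.1% and 1.15%. The 14 genes with a promoter sequence that rose at day 7 in at least 1 line held a CCAAT match in 10 cases and the 9 tested genes that did not in 6 (71.4% and 66.7%), and 9 and 3 of them held 2 or more matches. The promoters below, each the 250 bases before the start in 5′ to 3′ direction, are those of the gene with the TCACNCCAC match, of 5 genes that rose in both lines and hold CCAAT, and of ELOVL6, which rose in both lines and holds neither motif. Capitals mark CCAAT on either strand, which on the opposite strand reads ATTGG, and in SREBF2 also the TCACNCCAC match.
SREBF2, chr22:41832855-41833104, plus strand: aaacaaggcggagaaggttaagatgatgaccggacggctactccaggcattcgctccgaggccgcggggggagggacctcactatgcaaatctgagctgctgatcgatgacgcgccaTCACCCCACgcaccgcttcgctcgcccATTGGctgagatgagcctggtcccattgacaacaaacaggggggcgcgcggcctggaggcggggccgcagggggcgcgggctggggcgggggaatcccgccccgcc
HMGCS1, chr5:43313413-43313662, minus strand: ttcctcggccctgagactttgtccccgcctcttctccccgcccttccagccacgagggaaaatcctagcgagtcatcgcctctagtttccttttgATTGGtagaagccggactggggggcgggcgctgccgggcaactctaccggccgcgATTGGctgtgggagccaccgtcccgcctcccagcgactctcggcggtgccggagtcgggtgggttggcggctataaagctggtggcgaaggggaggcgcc
MSMO1, chr4:165327419-165327668, plus strand: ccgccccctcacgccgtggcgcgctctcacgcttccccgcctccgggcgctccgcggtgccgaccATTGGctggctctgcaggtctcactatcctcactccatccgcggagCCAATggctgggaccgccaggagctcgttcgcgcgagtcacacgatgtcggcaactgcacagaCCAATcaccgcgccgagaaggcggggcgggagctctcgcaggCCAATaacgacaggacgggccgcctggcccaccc
DHCR7, chr11:71448394-71448643, minus strand: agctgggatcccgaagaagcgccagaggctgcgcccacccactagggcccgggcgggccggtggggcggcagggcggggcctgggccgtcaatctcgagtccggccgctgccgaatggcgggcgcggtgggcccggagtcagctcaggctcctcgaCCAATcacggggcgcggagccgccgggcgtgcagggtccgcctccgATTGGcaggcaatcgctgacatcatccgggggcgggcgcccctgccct
INSIG1, chr7:155297628-155297877, plus strand: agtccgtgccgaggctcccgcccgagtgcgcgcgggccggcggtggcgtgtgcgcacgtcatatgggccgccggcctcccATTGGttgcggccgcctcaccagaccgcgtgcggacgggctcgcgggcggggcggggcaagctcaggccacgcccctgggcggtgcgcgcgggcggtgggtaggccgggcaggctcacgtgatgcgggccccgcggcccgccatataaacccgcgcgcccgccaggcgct
STARD4, chr5:111512536-111512785, minus strand: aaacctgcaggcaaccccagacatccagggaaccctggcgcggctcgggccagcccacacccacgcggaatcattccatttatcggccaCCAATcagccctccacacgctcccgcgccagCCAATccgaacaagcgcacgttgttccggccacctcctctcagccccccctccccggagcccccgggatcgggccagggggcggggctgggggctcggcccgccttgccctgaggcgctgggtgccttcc
ELOVL6, chr4:110198616-110198865, minus strand: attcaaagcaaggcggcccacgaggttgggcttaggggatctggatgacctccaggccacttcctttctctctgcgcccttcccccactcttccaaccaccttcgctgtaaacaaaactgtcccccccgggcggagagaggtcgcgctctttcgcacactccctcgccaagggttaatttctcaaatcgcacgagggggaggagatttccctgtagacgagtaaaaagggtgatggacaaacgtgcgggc

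The SREBF2 match, TCACCCCAC, begins 133 bases before the start, and its CCAAT match begins 106 bases before it. MSMO1 has 4 CCAAT matches, at 185, 139, 76 and 34 bases before the start, HMGCS1 has them at 155 and 100, STARD4 at 161 and 130 and DHCR7 at 94 and 48, whereas INSIG1 has 1, at 170 bases. These are matches of letters and not measured binding sites, and an element with other letters would not be found by this search.

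**Figure D3:**
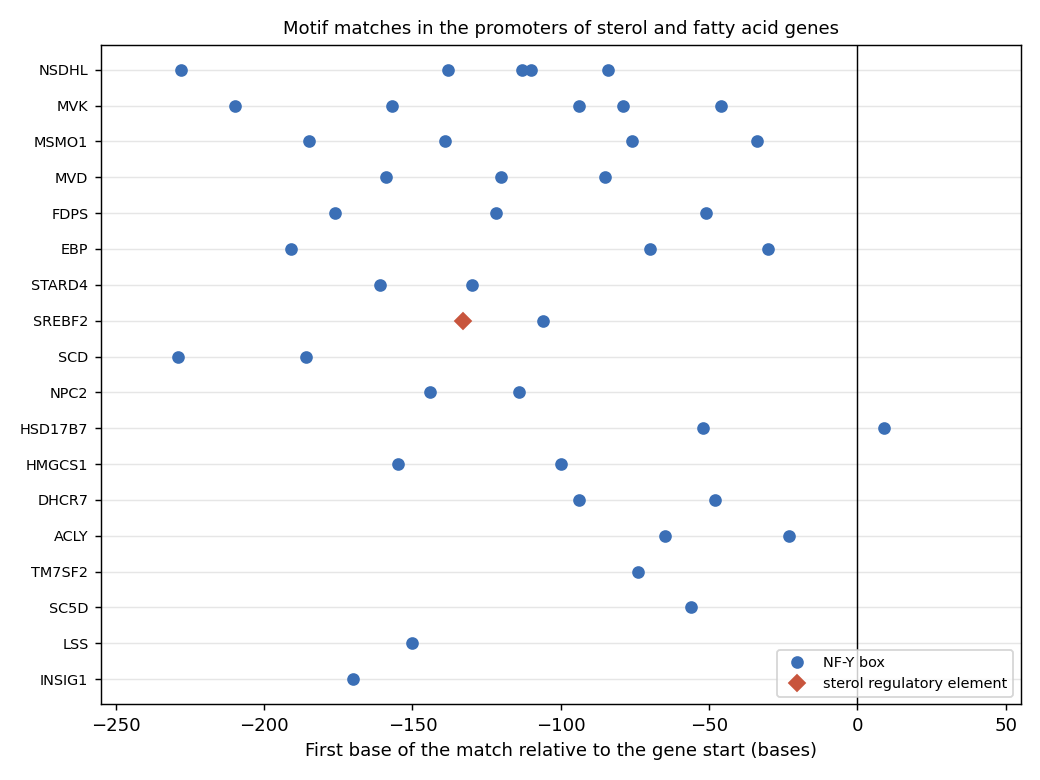
Position of CCAAT (NF-Y box) and TCACNCCAC (sterol regulatory element) matches relative to the gene start, in bases, in the 18 promoters of sterol and fatty acid genes that hold at least 1 of them. NSDHL and MVK hold 5 CCAAT matches each, and the TCACNCCAC match is in SREBF2 at 133 bases before the start.

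The second comparison followed the genes from day 7 to day 14. By their chosen probe sets, 5 of the 26 fell in both lines: HMGCS1, IDI1, SC5D, STARD4 and ELOVL6. Among all genes tested 13% fell in SaOS-2 and 12.3% on the arrays labelled Sa/CD99, and 5.52% and 2.8% rose, while 0 of the 26 rose in either line. The median of the 26 genes was -0.19 in SaOS-2 and -0.14 on the arrays labelled Sa/CD99, beside 0.11 and 0.06 over all genes tested. Beside the shares of all genes that fell, a count of 5 of 26 is too small to set these genes apart. For 4 of the 5, all but SC5D, the fall followed a rise that had passed the test in both lines. Both changes use the same day 7 arrays, so a high day 7 signal favours both calls. The share of all genes that rose and then fell was not counted. Under quantile normalization of the tested probe sets the same 5 genes fell in both lines, while the calls over all probe sets went from 4.75% higher and 18.2% lower to 11% and 14.6% in SaOS-2.

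HMGCS1 fell by 1.02 ± 0.22 SE on the log2 scale in SaOS-2 and by 0.93 ± 0.22 on the arrays labelled Sa/CD99 (adjusted p = 0.00554 and 0.0103). IDI1 stood at 10.04 and 9.99 in SaOS-2 and at 9.68 and 10.11 in the clones at day 14, having fallen by 1.05 ± 0.15 and by 0.67 ± 0.15 (adjusted p = 0.00119 and 0.00871). STARD4 stood at 7.81 and 7.78 in SaOS-2, just under both day 0 arrays, and at 6.85 and 7.62 in the clones, changes of -1.11 ± 0.20 and -1.26 ± 0.20 from day 7 (adjusted p = 0.00293 and 0.00223). ELOVL6 stood at 7.12 and 7.09 and at 6.62 and 7.47, changes of -1.18 ± 0.22 and -0.84 ± 0.22 (adjusted p = 0.00354 and 0.0171). SC5D was the one that fell without a prior rise, from 9.36 and 9.33 to 8.59 and 8.53 in SaOS-2 and from 9.09 and 9.25 to 8.08 and 8.50 in the clones (-0.78 ± 0.17 and -0.88 ± 0.17, adjusted p = 0.00678 and 0.00543). At day 14 clone wt36 lay above clone wt22 for all 5 genes, by 0.69 for HMGCS1, 0.43 for IDI1, 0.42 for SC5D, 0.77 for STARD4 and 0.85 for ELOVL6. The same order held at day 14 for every other tested gene except ACAT2, EBP, FADS2 and NPC1, so it was not particular to these 5. Without the wt22 array of day 14, 2 of the 5 falls passed on the arrays labelled Sa/CD99, and without the wt36 array of day 7, 3 did, and with only the 4 arrays of these 2 groups in the fit 0 did. Other probe sets agreed in direction for 10 of 14 genes in SaOS-2 and 8 of 14 on the arrays labelled Sa/CD99, and 1 IDI1 probe set gave 0.13 and 0.11. An INSIG1 probe set that was not chosen fell in both lines (-0.99 and -0.71, limma adjusted p = 0.000273 and 0.00135). So did 1 of SQLE (-0.91 and -1.01, limma adjusted p = 0.00553 and 0.00494), and no further probe set of INSIG1 or SQLE passed in both lines. Of the 23 other pathway genes tested, INSIG2, a relative of INSIG1, fell in SaOS-2 (-0.64) and GGPS1, which makes geranylgeranyl diphosphate, on the arrays labelled Sa/CD99 (-0.66), where SLC25A1, the mitochondrial citrate carrier, rose (0.64).

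At day 14, 7 genes were called higher than at day 0 in SaOS-2 and 13 on the arrays labelled Sa/CD99, where SC5D was the 1 gene called lower. The shares of all genes tested were 7.42% higher and 7.31% lower in SaOS-2 and 7.42% higher and 12.3% lower on the arrays labelled Sa/CD99. The 7 genes, DHCR7, ELOVL6, FADS2, INSIG1, MSMO1, NPC2 and SREBF1, were common to both lines, and each had risen by day 7. DHCR7 stood at 9.32 and 9.26 in SaOS-2 and at 9.42 and 9.60 in the clones, above every day 0 array by a group difference of 0.95 ± 0.10 and 1.15 ± 0.10 (adjusted p = 0.000343 and 0.000141). INSIG1 stood at 10.87 and 11.00 and at 10.83 and 11.06, changes of 0.90 ± 0.14 and 0.94 ± 0.14 from day 0 (adjusted p = 0.00245 and 0.00162), and SREBF1 at 7.63 and 7.61 and at 7.88 and 8.08, changes of 0.79 ± 0.15 and 0.82 ± 0.15 (adjusted p = 0.0062 and 0.00466). NPC2 (0.79 and 0.73), FADS2 (0.86 and 0.83) and MSMO1 (0.68 and 0.73) had the other called changes common to both lines, beside ELOVL6 (0.68 and 0.75). ELOVL6 lost its call in 10 of 20 alternatives in SaOS-2 and in 7 of 22 on the arrays labelled Sa/CD99, the one with no filter among them in both lines, and MSMO1 in 4 of 20 and 3 of 22.

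Genes that passed at day 14 on the arrays labelled Sa/CD99 only were FASN (0.68), HSD17B7 (0.70), MVK (0.62), NSDHL (0.64), SCD (0.62) and SQLE (0.71), whose changes in SaOS-2 were 0.34, 0.37, 0.52, 0.55, 0.48 and 0.50. For 5 of these 6 the adjusted p in SaOS-2 was under 0.05 (0.0455, 0.0104, 0.00268, 0.0424 and 0.012) and only the fold fell short, and for FASN it was 0.0572, and the differences between the lines were not past their own test. Under quantile normalization 10 genes passed in SaOS-2 in place of 7, with MVK, NSDHL and PMVK added. Another MVK probe set passed in both lines (0.61 and 0.81, limma adjusted p = 0.00478 and 0.00118). SREBF2 had its largest change here, 0.46 ± 0.11 and 0.53 ± 0.11 (adjusted p = 0.014 and 0.00682), under 1.5-fold in both lines. HMGCS1 and IDI1, with 0.44 and 0.23 in SaOS-2 and 0.53 and 0.45 on the arrays labelled Sa/CD99, no longer passed, and NPC1 (0.08 and 0.18, SE 0.37) and STARD4 (-0.07 and -0.35, SE 0.20) did not either. The other HMGCS1 probe set was still called higher in both lines (0.79 and 0.96, limma adjusted p = 0.0362 and 0.0155). Whether HMGCS1 passed at day 14 therefore depends on the probe set. SC5D was 0.92 ± 0.17 lower on the arrays labelled Sa/CD99 (log2 change -0.92, adjusted p = 0.00473), and in SaOS-2 its change was -0.53 (adjusted p = 0.0454), under the fold threshold. On the arrays labelled Sa/CD99 the count of 14 rests on the spread taken from all 12 arrays: with the 4 arrays of these 2 groups alone 1 gene passed, DHCR7. In SaOS-2 the count was 4 without the second day 0 array, which left out ELOVL6, MSMO1 and SREBF1. The other pathway genes gave 3 higher and 4 lower of 23 in SaOS-2 and 2 higher and 4 lower on the arrays labelled Sa/CD99, with ERG28 and LIPA higher and VLDLR, LBR, INSIG2 and GPAM lower in both.

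The third comparison, between the lines on each day, asked whether the arrays labelled Sa/CD99 differed from SaOS-2 in these genes. None of the 26 differed by the same thresholds in limma at days 0, 7 or 14, where 1.16%, 1.84% and 1.66% of all genes tested did. An unadjusted p under 0.05 was seen for 2, 5 and 5 of the 26. The share of all genes under that unadjusted p is not given here, so these counts are not read as an excess. The smallest adjusted p was 0.291, 0.107 and 0.174, and the median difference was 0.01, 0.06 and 0.09. The other pathway genes are outside these counts. At day 7 their widest gap was that of SCARB1, with means of 8.53 in SaOS-2 and 9.22 on the arrays labelled Sa/CD99. DGAT2 followed with 6.81 and 7.49, and its means were 6.95 and 7.52 at day 0 and 7.03 and 7.67 at day 14. Whether any of these other genes passed the thresholds between the lines is not reported here. A missed threshold does not show that the lines are alike: the 95% interval stayed within 1.5-fold either way for 20, 19 and 21 of the 26 genes at days 0, 7 and 14, and within 2-fold for 25, 25 and 24. The genes with unadjusted p under 0.05 were PMVK on all 3 days (0.29, 0.28 and 0.28 higher on the arrays labelled Sa/CD99), IDI1 at days 0 and 7 (-0.34 and -0.50), FDPS at day 7 (0.24), HSD17B7 at days 7 and 14 (0.37 and 0.37), NPC2 at days 7 and 14 (-0.28 and -0.27), and SREBF1 (0.36) and STARD4 (-0.56) at day 14. At days 0, 7 and 14 the differences were -0.09, -0.02 and 0.26 for FASN and -0.06, 0.10 and 0.08 for SCD.

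The clones parted most for NPC1. NPC1 was 9.04, 9.64 and 9.47 in clone wt22 at days 0, 7 and 14, near the SaOS-2 arrays (9.11 and 9.05, 9.52 and 9.57, 9.21 and 9.11), and 8.47, 8.65 and 8.40 in clone wt36, under every SaOS-2 array. Clone wt36 lay below clone wt22 by 0.57, 0.99 and 1.07 on the log2 scale, where the 2 SaOS-2 arrays were 0.06, 0.06 and 0.10 apart. With the wt22 arrays left out of the fit, NPC1 was the 1 gene of the 26 that differed from SaOS-2 at each day, a setting chosen after seeing the data. With the wt36 arrays left out, SREBF1 differed at day 0 and STARD4 at day 14, where clone wt22 stood at 7.42 and 6.85. With 1 array per clone and day, a clone's own spread was not measured.

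Whether the change over days differed between the lines was tested directly, as the interaction of line and day. None of the 26 genes passed in limma for day 7 against day 0 or for day 14 against day 0, 0 had an unadjusted p under 0.05 in either, and 0% of the genes tested passed in either. The point estimates ran from -0.29 to 0.33 at day 7 and from -0.39 to 0.34 at day 14, and the 95% intervals stayed within 1.5-fold for 15 and 16 of the 26 genes and within 2-fold for 25 in each. For HMGCS1 the estimate at day 7 was 0.00 with an interval from -0.68 to 0.69, and for ELOVL6 it was -0.27, from -0.98 to 0.45.

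**Figure D4:**
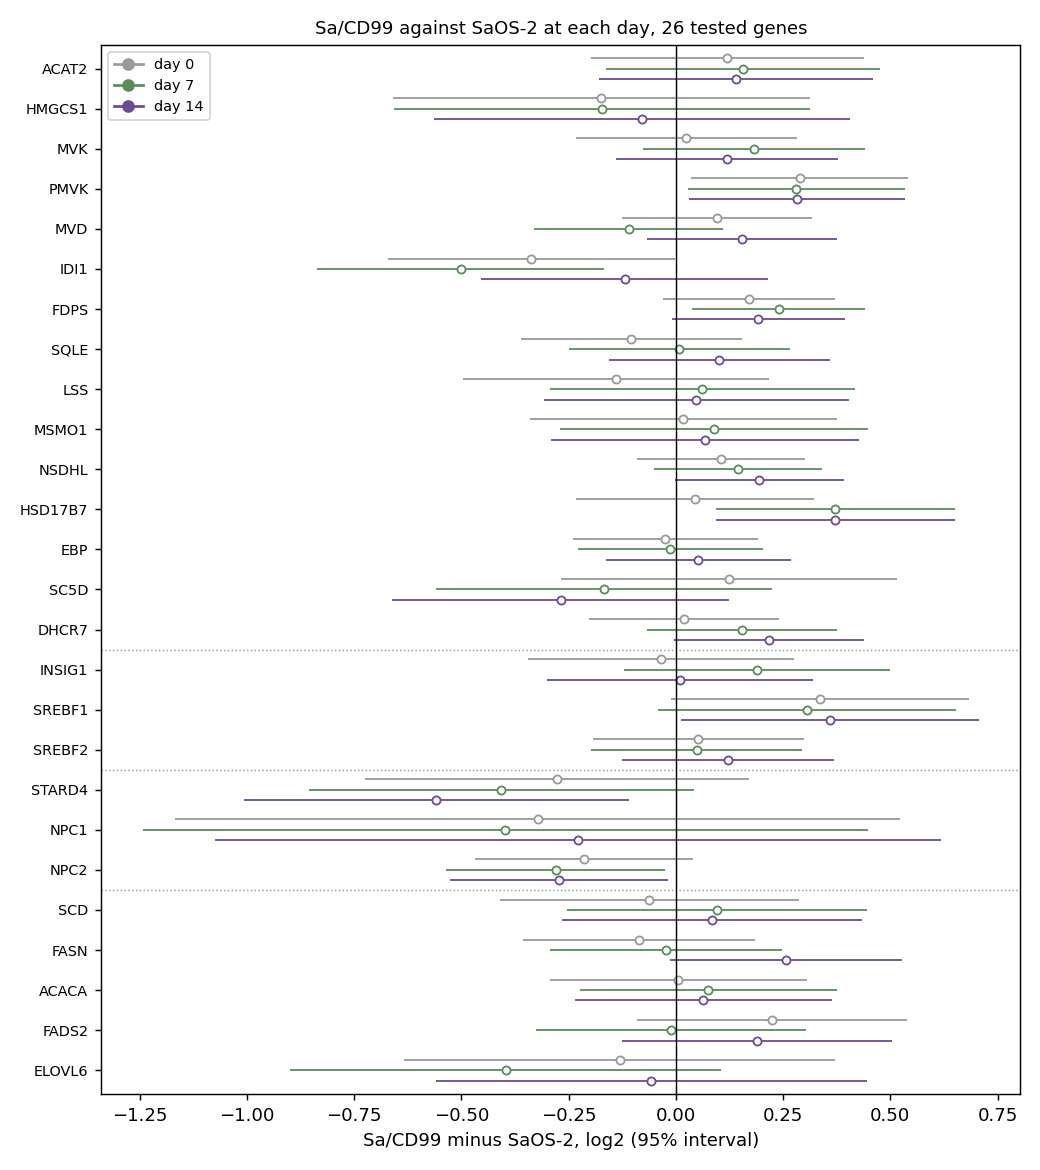
Log2 difference between arrays labelled Sa/CD99 and SaOS-2 with 95% intervals for the 26 tested genes at days 0, 7 and 14, in the same order and groups as the day changes. Every point is open, since 0 of the 26 passed on any day, and the widest intervals are those of NPC1.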

How the data were processed

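RNA from 12 samples of the cell line SaOS-2 and its CD99 transfectants was hybridised by the authors to Affymetrix arrays and normalized with RMA (affy, per the submitters' processing notes), and the deposited values are log2 signals. Of 54675 probe sets, 62 controls were dropped, and genes were named from GEO's platform annotation updated through RefSeq gene IDs: 41091 probe sets named 1 gene, 1801 several and 11721 none. Probe sets were tested where the signal exceeded 100 on more than 25% of the arrays (18677) and the interquartile range exceeded the median of 0.2186 (12894). limma 3.58.1 in R 4.3.3 fitted all 12 arrays with a mean per group, groups taken from the titles, with Benjamini-Hochberg adjustment, and calls needed adjusted p of 0.05 or less and 1.5-fold. No depth exists for arrays, and 2 arrays a group limit the precision. Intervals are 95%, with 6 residual and 3.18 prior degrees of freedom.

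Genes named are all called genes of the 35, plus a fixed set of key enzymes and regulators. The genes, lists and motifs were chosen with earlier results of these data known, so no shift of theirs is independent evidence, and no test over a list was made. Alternatives were the filters, quantile normalization, the arrays in the fit, a replicate block, array weights, probe set choice and leaving out each array. The fit was tested on simulated data with the same spread in all groups and changes set in SaOS-2 at day 7 only. That test does not cover the wider spread between clones. Clone numbers pair the arrays of a clone over days, and same-numbered arrays deviated together (correlations of 0.58, 0.32 and 0.63), whereas for the SaOS-2 numbers they were -0.04, 0.24 and -0.05.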

Additional observations from a re-analysis of the deposited data

How the results depend on the processing

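The 26 tested genes gave 286 values, of which 60 were called. Of 6125 values under the alternatives, 6000 stayed on their side of the thresholds, called or not called, 73 lost the call, 52 gained it, 0 called values changed sign and 226 values that were not called did. Leaving out each array in turn, the number of genes called ranged from 14 to 14 in SaOS-2 at day 7 against day 0, 4 to 7 at day 14 against day 0 and 5 to 5 at day 14 against day 7, but without the first SaOS-2 array of day 0 or the second of day 7, FASN took the place of FDPS among the 14. For the arrays labelled Sa/CD99 the ranges were 14 to 17, 11 to 17 and 2 to 7. Between the lines they were 0 to 0 at days 0 and 7 and 0 to 1 at day 14, STARD4 passing without the wt36 array, and 0 to 0 for both interactions. With the 4 arrays of the 2 groups alone in the fit, the arrays labelled Sa/CD99 gave 10 genes at day 7 against day 0, in place of 15, without FADS2, FDPS, HSD17B7, NPC2 and SREBF1, 1 gene at day 14 against day 0, in place of 14, and 0 at day 14 against day 7, in place of 5, and this fit has fewer residual degrees of freedom. With the replicate block, which pairs the arrays of a clone, the counts were 14, 7 and 5 in SaOS-2, 15, 14 and 5 on the arrays labelled Sa/CD99 and 0 in the line and interaction tests, and it changed no call of these genes. In the settings chosen after seeing the data, leaving out clone wt22 gave 1 gene (NPC1) between the lines at each day, 3 genes at day 14 against day 7 on the arrays labelled Sa/CD99 and 2 in the interaction at day 14 (HMGCS1 and IDI1), and it raised the counts at days 7 and 14 against day 0 on those arrays from 15 and 14 to 19 and 18. Leaving out clone wt36 gave 1 at day 0 (SREBF1), 1 at day 14 (STARD4) and 1 in the interaction at day 14 (STARD4), and it took the counts at days 7 and 14 against day 0 on the arrays labelled Sa/CD99 to 16 and 10, the second without ELOVL6, FASN, MSMO1, MVK, SCD and SREBF1 and with PMVK higher and STARD4 lower. The single array of a clone was then assumed to vary like the other groups. Quantile normalization turned the split of calls over all probe sets at day 14 against day 0 from 6.03% higher and 8.86% lower to 8.2% and 6.96% in SaOS-2, and from 6.39% and 13% to 8% and 8.6% on the arrays labelled Sa/CD99, where the split at day 14 against day 7 went from 2.98% and 15.6% to 7.04% and 11.7%. The genes most limited by signal are TM7SF2, ABCA1 and ABCG1, under the filter level on every array, and ELOVL6, under it on every day 0 array. MVD, with 6.62 to 7.28 over all arrays, and SREBF1, with a mean of 6.83 in SaOS-2 at day 0, lay close to that level.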
